A study of Mus musculus with 23 samples.

Results

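Transcripts of the heat shock proteins and J-domain chaperones were examined in quadriceps and epididymal fat of mice bearing pancreatic tumors. Members were chosen by symbol alone: every gene of the 2 count tables whose name begins with Hspa, Hspb, Hspd, Hspe, Hsph, Hsp90, Dnaja, Dnajb or Dnajc. This gave 74 of the 17194 genes measured in either tissue, 65 of 12831 in quadriceps and 73 of 16962 in fat, with 64 in both. Hspb3 was a member only in quadriceps, and 9 members (Dnajb3, Dnajb7, Dnajb8, Dnajb13, Dnajc5b, Dnajc5g, Dnajc6, Dnajc22 and Hspb9) only in fat. All of them passed the filter on low counts. The symbol rule also takes in Hspb11, an intraflagellar transport protein, and Hspbp1 and Hspbap1, which bind heat shock proteins, and these 3 are counted as members but kept apart from the chaperone families.

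The mice were male C57BL/6 (C57BL/6J in the study's methods), 8 weeks old at surgery, and came in 3 groups. The no tumor mice had sham surgery, the KPC mice received tumor cells in the pancreas, and the KPC IL6KO mice received the same kind of cells with Il6 disrupted. The KPC cells derive from a mouse model of pancreatic cancer. Each tumor group rests on a single clone: KPC is a control clone that was transfected without guide RNAs, and KPC IL6KO is an Il6-edited clone. The hosts were not edited, so no host gene here checks the labels, and a difference between the clones other than Il6 cannot be told apart from the edit. All groups were killed when the KPC mice wasted overtly. There were 3 no tumor, 4 KPC and 4 KPC IL6KO quadriceps libraries and 4 fat libraries of each group. Libraries are numbered from 1 in muscle and from 5 in fat, and whether any mouse gave both tissues is not given in the sources used here. Levels set across the tissues also carry any difference in preparation.

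HSP70 proteins bind exposed hydrophobic stretches of unfolded proteins in cycles of ATP hydrolysis, which J-domain proteins (the DNAJA, DNAJB and DNAJC families) start and aim at particular clients. HSP90 takes over late folding steps of kinases and receptors, chaperonins enclose a client in a chamber, and small heat shock proteins hold unfolding proteins without ATP, several of them at the sarcomere of striated muscle. Some of the cytosolic genes are classical targets of the heat shock factor Hsf1, and some of those of the endoplasmic reticulum (ER) are targets of the unfolded protein response.

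Promoters are shown for members on which the results turn and whose upstream sequence holds a textbook element. They run from 250 bases before to 50 bases after the annotated start (RefSeq, GRCm38.p6, the genome release that mm10 names), and 60 of the 74 members had an entry in the table used here. Letters in capitals mark the element found on either strand. The heat shock element is built of GAA and TTC blocks in turn, each 2 bases from the next, and was searched with 3 such blocks (starting with either) and with 2, GAANNTTC or TTCNNGAA, which lie within the 3-block form. The ER stress element was searched as CCAAT and CCACG with 9 bases of any kind between them. The 3-block form was present in 0.603% of all 32851 promoters and in 6 of the 77 promoters of members, those of Dnajb6, Hspd1, Hspe1 and Hsph1. A 2-block form was present in 15.1% of all promoters and 23.4% of those of members. The ER stress element was present in 0.119% of all promoters and in 3 of the 77, those of Hspa5, Hsp90b1 and Dnajc3. A match describes these letters only.
Hspe1 and Hspd1 lie head to head, so that their windows overlap and hold the same 2 overlapping 3-block elements, read from opposite strands.
Hspe1, chr1:55087898-55088197, plus strand: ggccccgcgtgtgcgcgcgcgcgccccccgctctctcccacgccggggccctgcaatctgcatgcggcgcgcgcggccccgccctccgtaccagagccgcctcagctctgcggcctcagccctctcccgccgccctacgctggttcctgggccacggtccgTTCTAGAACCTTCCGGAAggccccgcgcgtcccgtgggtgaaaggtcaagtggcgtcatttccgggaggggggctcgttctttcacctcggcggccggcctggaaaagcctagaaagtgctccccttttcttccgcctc
Hspd1, chr1:55087883-55088182, minus strand: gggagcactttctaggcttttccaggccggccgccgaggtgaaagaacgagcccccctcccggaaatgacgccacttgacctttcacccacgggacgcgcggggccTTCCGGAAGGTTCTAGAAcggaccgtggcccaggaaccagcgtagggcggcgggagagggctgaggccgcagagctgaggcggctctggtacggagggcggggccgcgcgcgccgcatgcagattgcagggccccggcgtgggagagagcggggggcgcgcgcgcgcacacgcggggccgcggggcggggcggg
Dnajb6 had the largest rise of the J-domain members in quadriceps, and its window holds the same form.
Dnajb6, chr5:29735648-29735947, plus strand: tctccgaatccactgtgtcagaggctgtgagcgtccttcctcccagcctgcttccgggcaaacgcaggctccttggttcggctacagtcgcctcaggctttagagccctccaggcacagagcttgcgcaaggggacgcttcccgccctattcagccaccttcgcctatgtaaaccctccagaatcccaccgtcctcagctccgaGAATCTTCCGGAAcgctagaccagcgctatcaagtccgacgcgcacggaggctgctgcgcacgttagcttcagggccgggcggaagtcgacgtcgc
Hspb1 and Hspa1b hold the 2-block form only and moved in opposite directions in KPC quadriceps.
Hspb1, chr5:135887669-135887968, plus strand: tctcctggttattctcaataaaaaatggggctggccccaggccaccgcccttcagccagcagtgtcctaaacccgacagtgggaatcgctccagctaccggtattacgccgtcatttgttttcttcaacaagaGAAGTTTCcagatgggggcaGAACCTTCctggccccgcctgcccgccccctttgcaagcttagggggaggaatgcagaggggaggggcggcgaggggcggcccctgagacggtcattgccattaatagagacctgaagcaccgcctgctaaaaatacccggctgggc
Hspa1b, chr17:34959189-34959488, minus strand: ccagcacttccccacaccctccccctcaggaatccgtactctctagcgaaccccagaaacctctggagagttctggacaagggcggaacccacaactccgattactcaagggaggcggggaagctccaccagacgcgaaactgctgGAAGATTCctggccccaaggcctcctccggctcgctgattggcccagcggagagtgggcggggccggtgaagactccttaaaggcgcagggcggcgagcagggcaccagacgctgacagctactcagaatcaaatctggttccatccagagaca
Hspa5 and Hsp90b1 encode the main HSP70 and HSP90 of the ER.
Hspa5, chr2:34771840-34772139, plus strand: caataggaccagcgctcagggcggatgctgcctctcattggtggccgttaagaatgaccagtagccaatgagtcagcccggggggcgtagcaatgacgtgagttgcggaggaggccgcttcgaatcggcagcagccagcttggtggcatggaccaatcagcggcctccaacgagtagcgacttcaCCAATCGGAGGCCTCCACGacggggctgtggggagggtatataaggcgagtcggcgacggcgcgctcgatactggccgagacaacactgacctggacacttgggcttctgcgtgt
Hsp90b1, chr10:86705395-86705694, minus strand: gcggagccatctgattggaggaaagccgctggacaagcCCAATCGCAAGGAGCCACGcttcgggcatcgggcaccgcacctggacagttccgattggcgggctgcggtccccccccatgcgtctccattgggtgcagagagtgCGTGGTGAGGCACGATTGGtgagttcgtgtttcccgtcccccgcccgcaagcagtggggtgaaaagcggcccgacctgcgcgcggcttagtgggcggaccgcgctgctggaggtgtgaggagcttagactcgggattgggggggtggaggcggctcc

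Quadriceps libraries held 19259763 to 74907810 assigned reads and fat libraries 26306377 to 56308545, so that 3 counts were worth 0.0462 to 0.154 CPM (reads of a gene scaled to a common library size by the trimmed mean of M values), a floor that covers counting error only. The biological coefficient of variation across genes was 22.7% in quadriceps and 63.5% in fat. Quadriceps libraries matched their label: all 6 myofiber markers were present and summed to 113000 to 183000 CPM. In KPC quadriceps, the 4 neutrophil markers tested summed to 4.5 to 21.8 CPM, against 0.359 to 0.779 in no tumor and 2.14 to 4.13 in KPC IL6KO, and all 4 were called higher in KPC than in no tumor. The 4 fibroblast markers summed to 158 to 261 CPM in KPC against 900 to 990 in no tumor and 502 to 764 in KPC IL6KO, and all 4 were called lower in KPC than in no tumor. Of the other lists, Mylpf and Acta1 of 6 myofiber, Lep of 6 adipocyte, Adgre1 and Mrc1 of 5 macrophage and Kdr of 3 endothelial markers were lower in KPC, while Cd68 and Krt18 (1 of 2 epithelial markers tested) were higher. The part of cell makeup in the results below was not tested, and fewer cells of a type cannot be told apart from less RNA per cell in whole tissue. In fat the labels held less well: epididymis markers summed to 751 to 90600 CPM and testis germ cell markers to 2.18 to 1470 CPM, beside 993 to 18100 CPM of adipocyte markers. The KPC IL6KO 5 library stood apart at the low end of both sums.

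In quadriceps, chaperone genes differed between KPC and no tumor mice in both directions. A gene was called at an FDR of at most 0.05 over all genes of the table with an FC of at least 1.5 either way (edgeR quasi-likelihood test). Of the 65 members, 23 rose (35.4%, where 26.7% of all 12831 genes rose) and 14 fell (21.5%, where 29% of all genes fell). Of the 28 that were not called, 12 passed the FDR but not the FC. Counts by family, place or list below are to be set against the same shares of all genes, and no set was tested. The median log2 FC was 0.23 over the members and -0.03 over all genes, and the members ran from -2.72 (Hspa12a) to 2.97 (Hspb7). As a share of all counts, the members together made up 0.689% to 0.739% in no tumor, 1.05% to 1.37% in KPC and 0.675% to 0.762% in KPC IL6KO libraries, and Hsp90ab1 alone made up 0.122% to 0.136%, 0.27% to 0.437% and 0.136% to 0.18%.

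Per length, the transcripts of highest level in no tumor quadriceps were Hsp90ab1 at 397 ± 45 CPM per kilobase of exon (SD, n = 3), Hspb6 at 304 ± 18.2, Hspb8 at 222 ± 22.6 and Hspa8 at 197 ± 17.3, of which Hspb8 and Hspa8 did not differ beyond their spread. Length here was that of the exons of all transcripts of a gene merged, and the order can change with another length. For Hspb6 it was 2299 bases, where its longest coding transcript has 1363, and for Hsp90ab1 2999, where that transcript has 2520. In KPC quadriceps the order was Hsp90ab1 at 1240 ± 313 (n = 4), Hspb1 at 785 ± 314 and Hspb7 at 618 ± 228, each of which overlapped with the next within 1 SD, with Hspb8 below them at 352 ± 86.7.

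The small heat shock proteins split. Of the 6 tested, Hspb7, Hspb1 and Hspb8 rose, Hspb2 and Hspb3 fell, and Hspb6 was not called. Hspb7 (chr4:141420779-141425311), a cardiac and skeletal muscle protein that binds filamin C, was measured at 200, 213 and 243 CPM in the no tumor libraries, 1430, 1270, 1480 and 2650 in KPC and 259, 262, 344 and 188 in KPC IL6KO. Every KPC library lay far above the other 7, and 1 of them (KPC 4) far above the other 3 (log2 FC 2.97 ± 0.28 (SE), FDR 6.1e-06). Hspb1 (chr5:135887919-135889563), the broadly expressed HSP25 that binds actin and damaged sarcomere proteins, was measured at 114, 110 and 108 CPM in the no tumor libraries, 1200, 447, 667 and 927 in KPC and 128, 119, 155 and 92.8 in KPC IL6KO. Its KPC values spread widely but did not reach the other groups (log2 FC 2.87 ± 0.3 (SE), FDR 1.15e-05). Of the 75-base windows of the Hspb1 transcript, 47.3% also occur in the pseudogene Hsp25-ps1, so that uniquely mapped reads can miss part of its level. Hspb8, a partner of Bag3 in chaperone-assisted autophagy, rose less, from 428, 390 and 478 to 692, 511, 913 and 626 CPM (log2 FC 0.67 ± 0.17 (SE), FDR 0.00503). Its call was lost without KPC 3 (log2 FC 0.5).

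Hspb2 and Hspb3, which form a complex of their own in muscle, fell together. Hspb2 (chr9:50751078-50752354) was measured at 69.3, 65.8 and 67.5 CPM in the no tumor libraries, 23.9, 30.2, 21.6 and 26.3 in KPC and 70.3, 72.8, 60.3 and 67 in KPC IL6KO (log2 FC -1.41 ± 0.12 (SE), FDR 3.07e-06). This was the smallest FDR of any member, with the KPC IL6KO and no tumor libraries intermingled. Hspb3 stood at 25.4, 22.4 and 25.7 CPM in the no tumor libraries, 7.45, 8.64, 6.23 and 5.97 in KPC and 22.8, 24.7, 19.3 and 18.5 in KPC IL6KO (log2 FC -1.79 ± 0.15 (SE), FDR 3.16e-06). Cryab (chr9:50751325-50756636), the alpha-crystallin that lies head to head with Hspb2 and shares 252 exon bases with it on the opposite strand, was not a member by its symbol. It stood at 638, 579 and 502 CPM in the no tumor libraries, 135, 269, 275 and 357 in KPC and 571, 700, 540 and 444 in KPC IL6KO and also fell (log2 FC -1.15 ± 0.26 (SE), FDR 0.00214). The strand setting of the counting was not given in the sources used here, so reads of the shared bases cannot be assigned between the pair. Hspb6, a sarcomeric and smooth muscle small heat shock protein, stayed between 502 and 777 CPM in KPC against 731, 713 and 651 in no tumor and overlapped with it (log2 FC -0.22 ± 0.17 (SE), FDR 0.27).

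**Figure D1:**
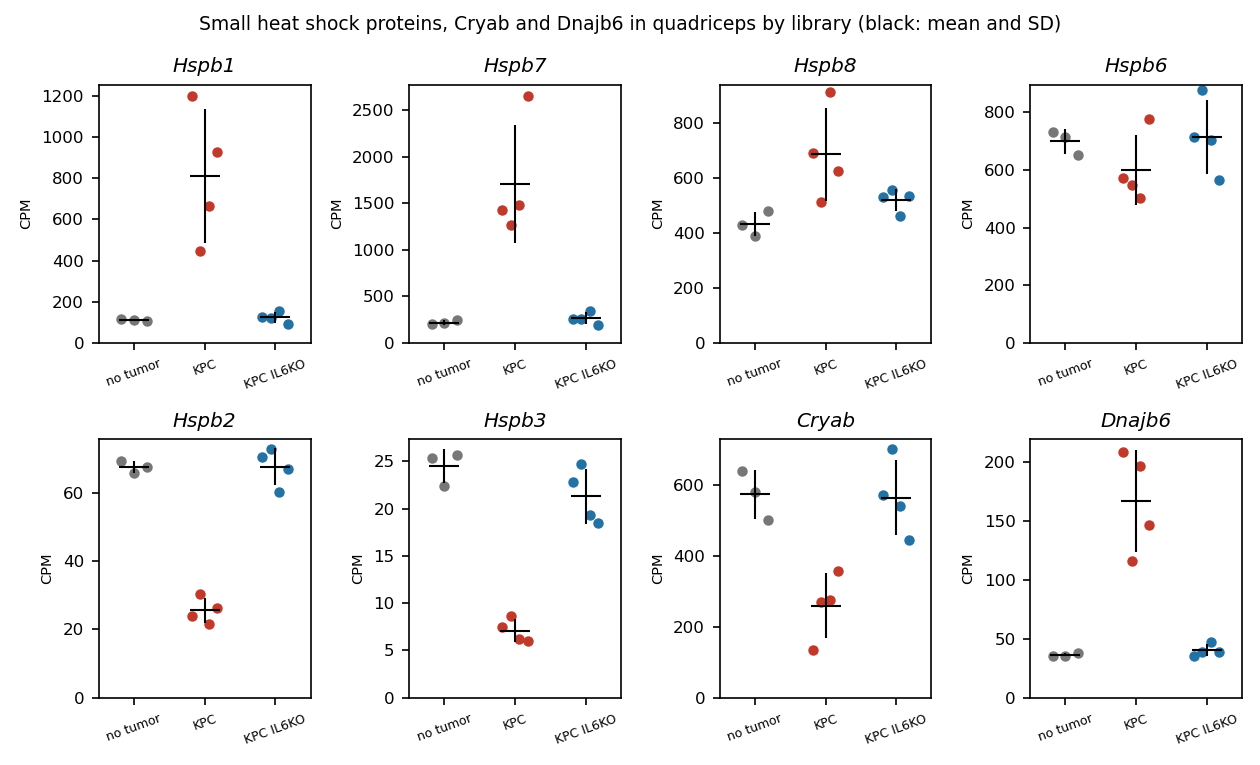
CPM of the 6 small heat shock proteins tested in quadriceps, with Cryab and Dnajb6, by group; each point is a library (3 no tumor, 4 KPC, 4 KPC IL6KO), black marks are the mean and SD, and each axis starts at 0. Hspb1, Hspb7 and Dnajb6 are high in the KPC libraries only, Hspb2, Hspb3 and Cryab are low in them, and Hspb6 overlaps between the groups.

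Of the 3 HSP90 genes, 2 were called higher, the constitutive cytosolic and the ER form. Hsp90ab1 (chr17:45567775-45573271), the constitutive cytosolic HSP90, was measured at 1130, 1100 and 1340 CPM in the no tumor libraries, 4240, 3060, 4760 and 2790 in KPC and 1330, 1380, 1780 and 1480 in KPC IL6KO (log2 FC 1.64 ± 0.2 (SE), FDR 2.78e-05). No KPC library came near the others. Hsp90b1, the ER form GRP94, went from 103, 94.1 and 92 to 160, 126, 204 and 135 CPM (log2 FC 0.7 ± 0.15 (SE), FDR 0.00177), a call that was lost without KPC 3 (log2 FC 0.54). Hsp90aa1, the inducible cytosolic form, was not called: at 40.2, 34 and 25.4 CPM in no tumor and 53.1, 32.6, 50.5 and 54.5 in KPC it passed the FDR but not the FC (log2 FC 0.52 ± 0.19 (SE), FDR 0.0286). It was called when no tumor 1 or KPC 2 was left out. Of its 75-base windows, 53.1% occur in other genes, mostly pseudogenes.

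In KPC quadriceps 26.7% of all genes rose and 29% fell. Among the 11 HSP70 genes, 3 rose (Hspa5, Hspa13 and Hspa9) and 5 fell (Hspa1a, Hspa1b, Hspa12a, Hspa12b and Hspa14). The rises lay in the ER and mitochondria. Hspa5, or BiP, the ER HSP70, stood at 185, 159 and 167 CPM in the no tumor libraries, 427, 235, 447 and 305 in KPC and 149, 134, 130 and 142 in KPC IL6KO, with each KPC library above all others (log2 FC 1.05 ± 0.2 (SE), FDR 0.000566). Hspa9, the mitochondrial mortalin, stood at 506, 477 and 463 CPM in no tumor and 710, 657, 955 and 639 in KPC (log2 FC 0.62 ± 0.14 (SE), FDR 0.00223), and lost its call without KPC 3 (log2 FC 0.47). Hspa8, the constitutive cytosolic HSP70 and the member of highest level per length in this family, was not called (933, 801 and 807 CPM in no tumor, 996, 849, 1280 and 857 in KPC, log2 FC 0.23 ± 0.17 (SE), FDR 0.229), with 68.0% of its windows found in other genes.

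The stress-inducible pair Hspa1a and Hspa1b, which heat shock raises most in other settings, was at a low level and fell. Hspa1b stood at 4.23, 3.33 and 1.13 CPM in the no tumor libraries, 0.293, 0.599, 0.867 and 0.828 in KPC and 1.24, 1.05, 1.64 and 0.806 in KPC IL6KO (log2 FC -2.19 ± 0.45 (SE), FDR 0.0011). Hspa1a stood at 5.42, 5.13 and 1.79 CPM in the no tumor libraries, 0.57, 1.25, 1.78 and 1.64 in KPC and 2.21, 2.61, 2.82 and 1.65 in KPC IL6KO (log2 FC -1.68 ± 0.41 (SE), FDR 0.00353). For both genes no tumor 1 and 2 lay well above no tumor 3, and no tumor 3 lay near the tumor groups. Without no tumor 1 the log2 FC was -1.8 for Hspa1b and -1.41 for Hspa1a, and both kept their call. The pair is nearly identical, with 54.2% of the windows of Hspa1a and 55.8% of those of Hspa1b found in another gene, so the split of reads between them is uncertain. Their promoters each hold a 2-block element, 104 bases before the start in both.

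Hspa12a and Hspa12b are atypical HSP70 proteins without a clear peptide-binding domain, and Hspa12b is known from endothelium. Hspa12a had the largest fall of all members, from 11.8, 17.2 and 8.71 CPM to 0.878, 2.96, 1.46 and 2.37, with 6.68, 7.85, 5.84 and 5.09 in KPC IL6KO (log2 FC -2.72 ± 0.36 (SE), FDR 5.48e-05). The KPC IL6KO libraries lay between the other groups without touching either. Hspa12b went from 16.1, 19 and 18 to 2.31, 11.4, 8.18 and 4.4 CPM (log2 FC -1.43 ± 0.38 (SE), FDR 0.00597), while KPC IL6KO stood at 19.8, 20.2, 22.3 and 18.1. Of the 3 endothelial markers, Kdr was called lower in KPC and the other 2 were not called, and their summed level overlapped between the groups (136 to 229 CPM in KPC, 150 to 210 in no tumor). Of the HSP110 nucleotide exchange factors of HSP70, Hspa4 rose (log2 FC 0.73 ± 0.14 (SE), FDR 0.000563), while Hsph1 (114, 95 and 93.2 CPM in no tumor, 91.7, 136, 151 and 95.4 in KPC) was not called (log2 FC 0.23 ± 0.18 (SE), FDR 0.256), and its promoter also holds the 3-block element.

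**Figure D2:**
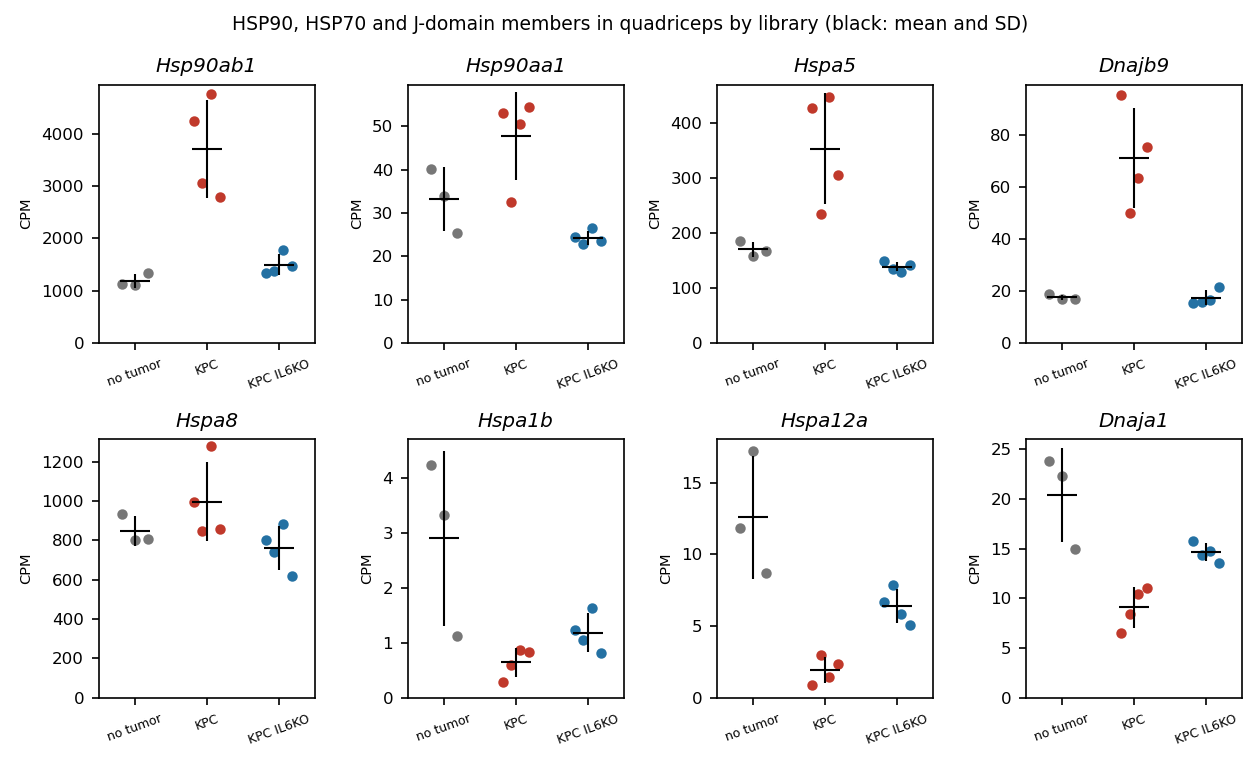
CPM of 8 HSP90, HSP70 and J-domain members in quadriceps by group, with a point per library, the mean and SD in black, and axes from 0. Hsp90ab1, Hspa5 and Dnajb9 are higher in every KPC library than in any other, Hspa12a and Dnaja1 are lower, Hspa8 overlaps, and for Hspa1b 2 of the 3 no tumor libraries lie far above the rest.

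The 10 members classed here as acting in the ER, a list that need not be complete, showed rises and no falls. Dnajb9, Dnajb12, Hspa13, Hspa5 and Hsp90b1 were called higher in KPC, and the other 5 were not called (median log2 FC 0.56 over the 10). Dnajb9 (chr12:44205559-44210326), or ERdj4, a co-chaperone of BiP in degradation and a regulator of the Ire1 sensor, stood at 18.7, 16.9 and 17.1 CPM in the no tumor libraries, 95.5, 50.1, 63.5 and 75.5 in KPC and 15.4, 15.9, 16.4 and 21.6 in KPC IL6KO (log2 FC 2.02 ± 0.21 (SE), FDR 9.25e-06). Dnajb12, an ER membrane J protein that recruits HSP70 to faulty membrane proteins, stood at 42.8, 44 and 55.8 CPM in the no tumor libraries, 179, 139, 205 and 113 in KPC and 56.7, 54.6, 64.1 and 64 in KPC IL6KO (log2 FC 1.74 ± 0.19 (SE), FDR 1.64e-05). Both showed KPC libraries far above all others. Dnajc3, or P58IPK, whose promoter also holds the ER stress element, stood at 33.2, 35.1 and 35.1 CPM in no tumor and 50.2, 36.7, 52.2 and 43.5 in KPC, which passed the FDR but not the FC (log2 FC 0.41 ± 0.12 (SE), FDR 0.0107). Outside the family, the 11 ER folding enzymes did not move one way: Canx and P4hb rose, Sdf2l1 and Pdia4 fell, and the median log2 FC was -0.12.

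The mitochondrial chaperonin pair came apart. Hspd1 (HSP60, chr1:55077835-55088243) builds the chamber and Hspe1 (HSP10, chr1:55088132-55091307) its lid, and both start from the shared region printed above. Hspe1 stood at 39.8, 37.6 and 38.6 CPM in the no tumor libraries, 61.9, 50.6, 61.6 and 51.8 in KPC and 33, 36.2, 37 and 35.3 in KPC IL6KO (log2 FC 0.55 ± 0.1 (SE), FDR 0.000597), and Hspd1 at 190, 174 and 168 CPM in the no tumor libraries, 126, 154, 140 and 137 in KPC and 167, 168, 176 and 159 in KPC IL6KO (log2 FC -0.35 ± 0.1 (SE), FDR 0.00695). Both passed the FDR in opposite directions and neither reached the FC. Hspe1 was called with DESeq2, with another scaling (RLE), and when no tumor 1, KPC 2 or KPC 4 was left out. The ratio of Hspe1 to Hspd1 CPM was 0.209, 0.216 and 0.23 in no tumor, 0.49, 0.328, 0.442 and 0.378 in KPC and 0.198, 0.215, 0.21 and 0.222 in KPC IL6KO. All 4 KPC ratios were above all others. By a two-sided exact permutation test of the log2 ratio, chosen after these values were seen, KPC differed from no tumor at p = 0.0571 and from KPC IL6KO at p = 0.0286, each the smallest p that such groups allow, with 0.171 for both after adjustment over the 6 tests in the 2 tissues. In fat the ratio was 0.208 ± 0.0278 in no tumor and 0.208 ± 0.0154 in KPC (SD, n = 4 each, exact permutation p = 0.971). The genes share 112 exon bases on opposite strands, and 33.7% of the windows of Hspd1 and 23.7% of those of Hspe1 occur in pseudogenes. The other 6 mitochondrial members were mixed: Hspa9 and Dnajc30 rose, Dnajc19, a subunit of the protein import motor, fell (log2 FC -0.71 ± 0.11 (SE), FDR 0.000139), and Dnaja3, Dnajc11 and Dnajc15 were not called.

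J-domain members outside the ER and mitochondria held large changes too. Dnajb6, which keeps aggregation-prone proteins soluble and is mutated in a limb-girdle muscular dystrophy, stood at 35.8, 35.4 and 37.9 CPM in the no tumor libraries, 209, 116, 197 and 147 in KPC and 35.7, 38.6, 47.5 and 39 in KPC IL6KO (log2 FC 2.2 ± 0.2 (SE), FDR 4.14e-06). Of its 75-base windows, 33.3% occur in other genes. Dnajb2, which delivers ubiquitinated clients to the proteasome and is abundant in neurons and muscle, stood at 93.5, 89.8 and 96.9 CPM in the no tumor libraries, 292, 227, 376 and 250 in KPC and 84.3, 101, 105 and 91.9 in KPC IL6KO (log2 FC 1.61 ± 0.17 (SE), FDR 9.28e-06). Dnajc2, the ribosome-associated MPP11, rose (log2 FC 1.58 ± 0.17 (SE), FDR 1.07e-05) while its ribosomal partner Hspa14 fell (log2 FC -0.76 ± 0.18 (SE), FDR 0.00266). All KPC libraries of Dnajb6, Dnajb2 and Dnajc2 lay above all others. Of the closely related class A proteins, Dnaja2 rose from 163, 153 and 193 to 512, 374, 485 and 396 CPM (log2 FC 1.38 ± 0.14 (SE), FDR 1.05e-05) and Dnaja1 fell from 23.8, 22.3 and 15 to 6.51, 8.39, 10.4 and 11 CPM (log2 FC -1.17 ± 0.19 (SE), FDR 0.000241). Dnaja1 shares 857 exon bases with genes of the opposite strand. The heat-inducible Dnajb1 (HSP40) stood at 15.8, 13.3 and 8.4 CPM in no tumor and 8.33, 6.74, 8.05 and 14.6 in KPC and was not called (log2 FC -0.42 ± 0.27 (SE), FDR 0.191), nor was Dnajb4 (log2 FC 0.31 ± 0.16 (SE), FDR 0.101). Dnajb5, a class B protein of the cytosol, fell to just past the threshold (log2 FC -0.6 ± 0.14 (SE), FDR 0.00324), a call that ended with DESeq2 (-0.56) and when no tumor 1, no tumor 3, KPC 2 or KPC 4 was left out (-0.5 at the least). Of the 24 DNAJC members, 8 rose and 4 fell, where 26.7% of all genes rose and 29% fell. Of these 12, Dnajc7, Dnajc8, Dnajc21 and Dnajc24 lay just past the FC and lost their call when single libraries were left out (log2 FC 0.59, 0.61, 0.6 and -0.61). Hspbp1, a nucleotide exchange factor that inhibits HSP70, fell (log2 FC -1.03 ± 0.14 (SE), FDR 5.05e-05), and Hspbap1 rose (log2 FC 1.24 ± 0.39 (SE), FDR 0.0149) with KPC 3 far above the others (20.2 CPM against 6.23 to 7.41). Its log2 FC was 0.66 without KPC 3, and its call was lost without no tumor 2.

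**Figure D3:**
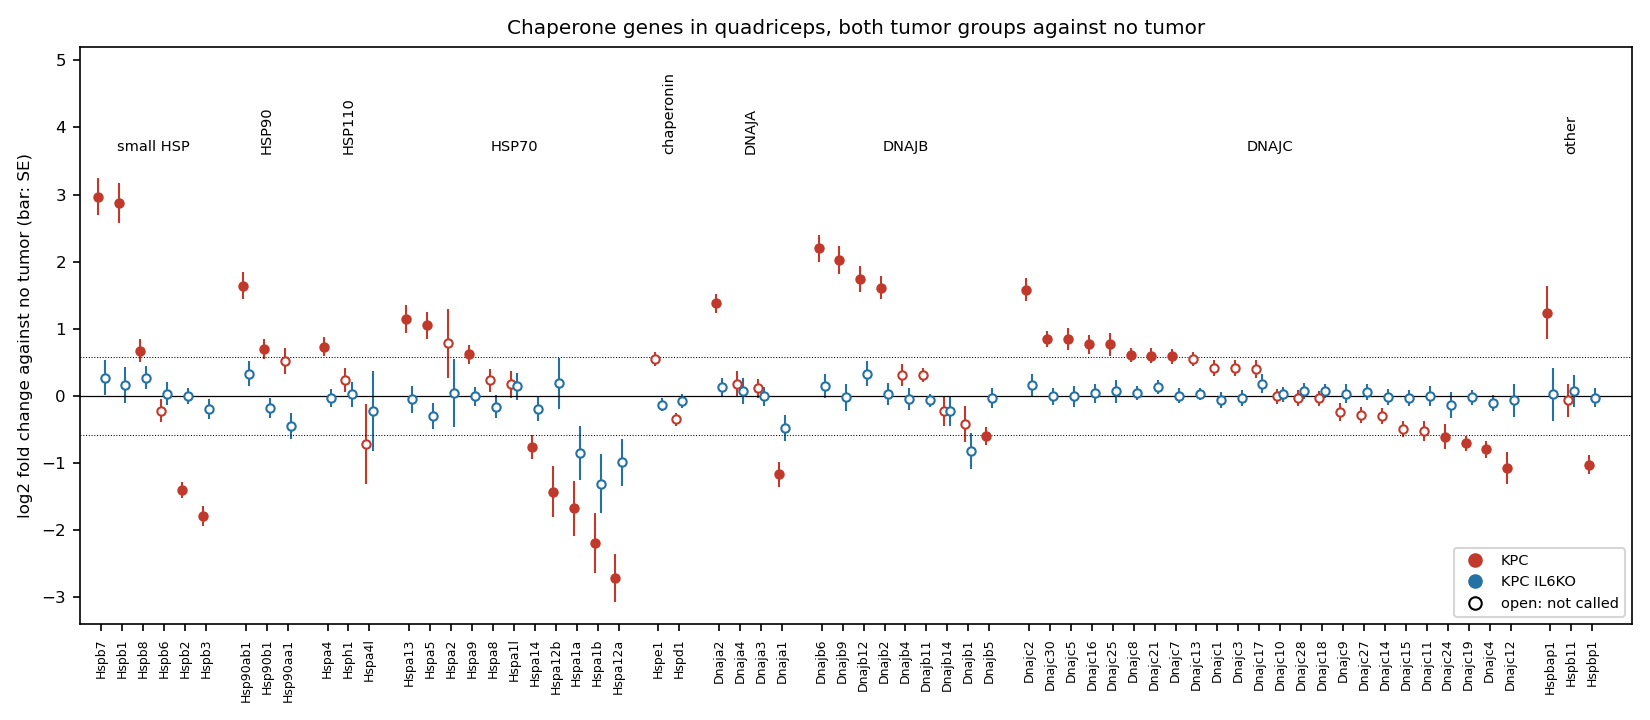
Log2 fold change against no tumor of all 65 members in quadriceps, with KPC in red and KPC IL6KO in blue, bars of 1 SE, filled points where called, and dotted lines at an FC of 1.5; members are grouped by family and ordered by their KPC value. KPC points run from -2.72 to 2.97 with 37 filled, while no KPC IL6KO point is filled.

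Other chaperone genes were read from lists set by pathway, beside the 26.7% of all genes that rose and the 29% that fell. Of the 4 genes of heat shock factors and their binding protein, Hsf1, Hsf2 and Hsf4 rose and Hsbp1 was not called (median log2 FC 1.31, where all genes had -0.03). Hsf1 stood at 51.6, 51.8 and 52.4 CPM in the no tumor libraries, 109, 92.8, 132 and 94.3 in KPC and 56.3, 59.1, 66.3 and 60.6 in KPC IL6KO (log2 FC 1.04 ± 0.13 (SE), FDR 3.24e-05). Of 18 HSP90 co-chaperones, Ptges3 and Fkbp5 rose, Stip1, Fkbp4 and Itgb1bp2 fell, and the median was -0.07. Fkbp5, an HSP90 co-chaperone of steroid receptors and a glucocorticoid target, stood at 28.8, 30.6 and 58.5 CPM in the no tumor libraries, 716, 425, 573 and 726 in KPC and 31.7, 29.7, 65.1 and 66.4 in KPC IL6KO (log2 FC 3.96 ± 0.4 (SE), FDR 9.01e-06). That is an FC of 15.6, above that of any member. Of 12 nucleotide exchange and co-factors of HSP70 tested, Bag3, Bag5, Bag6 and Grpel1 rose and Bag2 fell (median 0.31). Of 14 genes of the cytosolic chaperonin CCT and prefoldin, 7 rose and none fell (median 0.59). Of 8 mitochondrial quality control genes, the proteases and partners Clpp, Clpx, Afg3l2 and Yme1l1 rose and none fell (median 0.53). Of the 2 alpha-crystallins only Cryab was tested.

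In quadriceps of mice with Il6-edited tumors no chaperone gene passed the test. In KPC IL6KO against no tumor, 0 of 65 members were called and 0% of all genes. The smallest FDR of a member was 0.484. At an unadjusted p under 0.05 there were 5 members (7.69%, where 6.91% of all genes passed). The edgeR likelihood ratio test called 0 members and 0.74% of all genes, and DESeq2 0 members and 0.748%. For 44 of the 65 members, and 23 of the 37 called in KPC, the 95% interval of the log2 FC lay wholly within an FC of 1.5 either way, as for Dnajb6 (-0.26 to 0.55), Hspb2 (-0.26 to 0.26) and Dnajb9 (-0.45 to 0.41). The intervals of Hspb1 (-0.44 to 0.76), Hspb7 (-0.29 to 0.83) and Hsp90ab1 (-0.09 to 0.75) did not, but lay far below their KPC values. The 5 members were Dnajb1 (log2 FC -0.82), Hspa1b (-1.31), Hspa12a (-0.99), Dnaja1 (-0.48) and Hsp90aa1 (-0.45), all with a lower mean in KPC IL6KO. For 4 of them, all but Hspa12a, no tumor 1 and 2 were above all KPC IL6KO libraries and no tumor 3 was the lowest of its group, within the range of the KPC IL6KO values. None of the 7 pathway lists held a called gene.

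Compared directly, 22 of the 65 members were higher in KPC than in KPC IL6KO quadriceps (33.8%, where 26.4% of all genes were) and 9 were lower (13.8%, against 27.3%). The median log2 FC was 0.36 over the members and -0.01 over all genes, and it rested in part on single libraries (0.18 without KPC 4, 0.24 without KPC 3). All 3 HSP90 genes were higher, Hsp90aa1 included (53.1, 32.6, 50.5 and 54.5 CPM against 24.5, 22.8, 26.5 and 23.4, log2 FC 0.97 ± 0.17 (SE), FDR 0.000417). Hspb7 (log2 FC 2.7 ± 0.25 (SE), FDR 4.51e-06), Hspb1 (log2 FC 2.71 ± 0.27 (SE), FDR 6.68e-06), Dnajb6 (log2 FC 2.06 ± 0.18 (SE), FDR 2.82e-06) and Dnajb9 (log2 FC 2.04 ± 0.19 (SE), FDR 4.08e-06) were also higher. Hspe1 was called here (log2 FC 0.68 ± 0.09 (SE), FDR 6.95e-05). Hspb2, Hspb3, Hspa12a, Hspa12b and Dnaja1 were lower, whereas Hspa1a (log2 FC -0.83 ± 0.39 (SE), FDR 0.076) and Hspa1b (log2 FC -0.88 ± 0.42 (SE), FDR 0.0856) were not called. Dnaja1 lost its call here without KPC 1 (log2 FC -0.56), and Hspa9, which was higher, lost its call without KPC 3 (0.49).

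In epididymal fat no member was called in any comparison, with libraries of unequal tissue makeup. In KPC against no tumor 0 of 73 members and 0% of all 16962 genes were called, with 8 members at an unadjusted p under 0.05 (11%, where 12.2% of all genes passed). In KPC IL6KO against no tumor there were again 0 and 0%, with 3 members under 0.05 (4.11%, against 9.34%). In KPC against KPC IL6KO there were 0 and 0%, with 5 under 0.05 (6.85%, against 6.26%). The likelihood ratio test called 0 members in each, where it called 2.43%, 1.23% and 0.389% of all genes. DESeq2 called 1 member, Dnajb5, in KPC against no tumor (3.45% of all genes) and 0 in the other comparisons (1.69% and 0.737%). Only 22 of the 73 members had a 95% interval for KPC IL6KO within an FC of 1.5, so that differences of that size were mostly not detectable at this spread.

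Dnajb5 stood at 16, 16.7, 15.4 and 17.7 CPM in the no tumor libraries, 11.5, 10.5, 8.89 and 8.78 in KPC and 10.2, 18.6, 14.6 and 20.6 in KPC IL6KO, each KPC library below each no tumor library (log2 FC -0.73 ± 0.23 (SE), FDR 0.28 by the quasi-likelihood test). Hspa12a stood at 27.1, 107, 12.4 and 31.2 CPM in no tumor and 14.2, 13.1, 9.6 and 7.8 in KPC, which overlap (log2 FC -1.99 ± 0.67 (SE), FDR 0.297). Its no tumor 6 value was far above the rest, and the log2 FC was -1.08 without it. Hspb6 stood at 11.9, 36.2, 10.9 and 56.6 CPM in the no tumor libraries, 8.73, 10.9, 9.1 and 9.53 in KPC and 48.1, 12.5, 15.4 and 74.2 in KPC IL6KO (log2 FC -1.59 ± 0.64 (SE), FDR 0.363), with 2 high libraries each in no tumor and KPC IL6KO and none in KPC. Myofiber markers in these fat libraries summed to 8.55 to 266 CPM in no tumor, 2.16 to 5.16 in KPC and 93.6 to 2390 in KPC IL6KO, with the most in KPC IL6KO 8, where Hspb6 was also highest. The order differed elsewhere: KPC IL6KO 7 had 375 CPM of these markers with Hspb6 at 15.4, and KPC IL6KO 5 had 93.6 with Hspb6 at 48.1. The part of myofiber RNA in the Hspb6 values was not tested. Dnajc15, a mitochondrial import protein, stood at 34.4, 55.8, 31.1 and 45.5 CPM in the no tumor libraries, 23.7, 23.3, 30.7 and 18.3 in KPC and 15.9, 30.8, 36.8 and 25 in KPC IL6KO and was not called (log2 FC -0.8 ± 0.28 (SE), FDR 0.307 in KPC, log2 FC -0.62 ± 0.28 (SE), FDR 0.529 in KPC IL6KO). Against KPC IL6KO, Hspb6 (log2 FC -1.97 ± 0.65 (SE), FDR 0.664) and Hspa12b (log2 FC -1.7 ± 0.67 (SE), FDR 0.714) had low means in KPC that were not called either. Hspb1 had 13.3, 32.9, 16 and 26.2 CPM in no tumor and 72.1, 24.5, 41.6 and 47.1 in KPC IL6KO, overlapping and not called (log2 FC 1.07 ± 0.47 (SE), FDR 0.529). Hsph1 had 43.3, 35.6, 38.8 and 37.9 CPM in no tumor and 220, 59, 52.3 and 75.8 in KPC IL6KO (log2 FC 1.39 ± 0.41 (SE), FDR 0.394), with a log2 FC of 0.68 without KPC IL6KO 5.

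All 9 testis-enriched members were highest in the fat library with the most germ cell marker RNA, no tumor 8, and 7 of the 9 were lowest in the one with the least, KPC IL6KO 5, while Dnajb7 was lowest in KPC IL6KO 6 and Hspa2 in KPC 5. Hspa1l, a spermatid HSP70 that shares 1778 exon bases with Gm10501 on the opposite strand, stood at 2.21, 42.8, 29.1 and 81.2 CPM in the no tumor libraries, 10.4, 4.21, 51.7 and 5.07 in KPC and 0.147, 3.7, 24.2 and 12.7 in KPC IL6KO, and Dnajb3 and Hspb9 ran likewise, from 0.368 to 79.5 and from 0.0245 to 61.5 CPM. Hspa1l was also present in quadriceps, at 24.5 to 46.2 CPM over the libraries, where no germ cell marker was tested. The germ cell markers summed to 1470 CPM in no tumor 8 and to 2.18 CPM in KPC IL6KO 5, where Hspb9 was under the floor of 3 counts. Dnajb7, also testis-enriched, stood at 3.6, 8.72, 7.9 and 15.6 CPM in the no tumor libraries, 1.69, 2.03, 11.5 and 2.99 in KPC and 2.5, 1.65, 5.76 and 2.87 in KPC IL6KO (log2 FC -1.48 ± 0.69 (SE), FDR 0.543 in KPC IL6KO). Of the 9 members classed as testis-enriched, none was called, and their median log2 FC was -1.14 in KPC and -1.77 in KPC IL6KO, where all 73 members had -0.22 and -0.12. The part of the germ cells in these values was not tested.

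Most members classed as ER were highest in the 3 fat libraries with the largest sums of epididymis markers. Hspa5 stood at 2660, 809, 2240 and 1280 CPM in the no tumor libraries, 1040, 1480, 1690 and 1690 in KPC and 1070, 2760, 1720 and 1290 in KPC IL6KO and Hsp90b1 at 2810, 654, 2150 and 913 CPM in the no tumor libraries, 1020, 1620, 1700 and 1630 in KPC and 1020, 2940, 1210 and 1130 in KPC IL6KO. Their highest values fell in no tumor 5, no tumor 7 and KPC IL6KO 6, the libraries with the most of the epididymal protein Adam7 (11900 to 15200 CPM, where the others had 20.2 to 6730). The same 3 libraries were the highest for 7 of the 10 members classed as ER: Hspa5, Hsp90b1, Dnajc3, Dnajc10, Hspa13, Dnajb11 and Dnajb12. That did not hold for Dnajb9, Dnajc1 and Dnajb14, the last of which was highest in no tumor 8 (44.8 CPM). The part of the epididymis in these values was not tested. Gpx5, another epididymal gene, lay at 21300 to 55000 CPM in 7 libraries, which were 2 of the no tumor, all KPC and 1 of the KPC IL6KO libraries, and at 4.69 to 85.8 CPM in the other 5. The markers Lcn5, Lcn8 and Spag11b were likewise higher in each of the 7 than in any of the 5. Crisp1, also an epididymis marker, ran otherwise, at 1310, 12000, 5750 and 14500 CPM in no tumor, 156, 525, 2740 and 5330 in KPC and 621, 414, 12100 and 9430 in KPC IL6KO. Its highest values fell among the 5, so a low Gpx5 level does not mean little epididymis RNA of every kind. Within the 7, 2 no tumor against 4 KPC libraries in a split added after the data were seen, 0 of 73 members were called (2.32% of all genes were), and 9 had an unadjusted p under 0.05 (12.3%, where 21.8% of all genes did). Within the 5, 0 of 73 members and 0% of all genes were called in KPC IL6KO against no tumor, and 4 members had p under 0.05 (5.48%, where 4.51% of all genes did). No KPC library was among the 5, so that KPC and a high Gpx5 level cannot be told apart outside the 7.

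**Figure D4:**
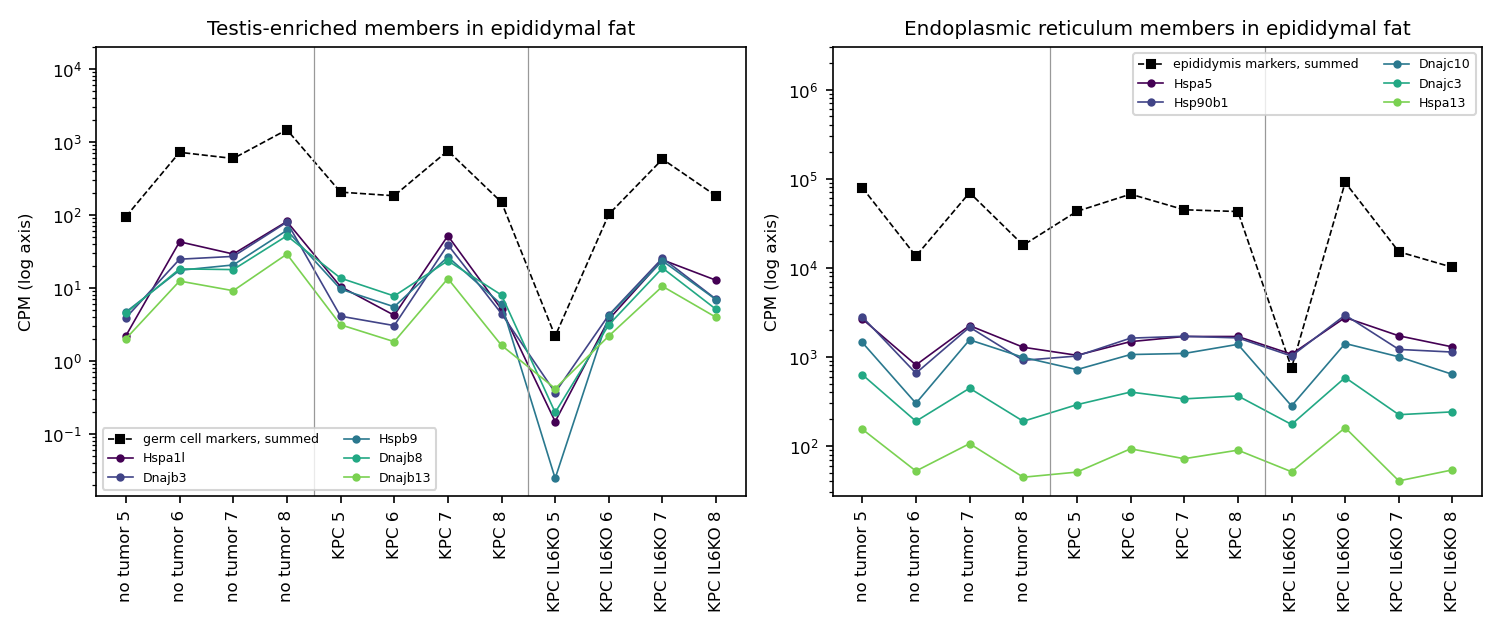
CPM on a log axis in each of the 12 epididymal fat libraries, with grey lines between the groups; lines only join the points of a gene. On the left 5 testis-enriched members lie beside the summed germ cell markers (2.18 to 1470 CPM), and on the right 5 ER members lie beside the summed epididymis markers (751 to 90600 CPM).

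Whether a member responded differently in the 2 tissues was tested as a difference of log2 FC with all 23 libraries fitted together as independent, which would not hold if mice gave both tissues, using the 12599 genes that both tables hold. In KPC against no tumor, 14 of 64 members had a higher log2 FC in quadriceps (21.9%, where 18.1% of all genes did) and 7 a lower one (10.9%, against 18.8%). The smallest FDR belonged to Dnajb6, whose log2 FC was 2.2 in quadriceps and -0.22 in fat (difference 2.32 ± 0.26, FDR 3.19e-06). Dnajb12 (1.74 and -0.09, difference 1.71 ± 0.25, FDR 4.62e-05), Dnajb2 (1.61 and -0.55, difference 2.06 ± 0.31, FDR 5.51e-05) and Dnaja2 (1.38 and 0.13, difference 1.15 ± 0.21, FDR 0.000383) came next. The difference is not exactly that of the 2 values, since the joint fit scales the libraries over the shared genes. Hspb7, Hspb1, Dnajb9 and Hsp90ab1 were among the 14. The 7 lower members were Hspb2, Hspa1b, Hspbp1, Dnaja1, Hspa14, Dnajc19 and Hspd1, of which Hspb2 lost its call without fat KPC 5 (difference -1.26), Hspa1b without quadriceps no tumor 1 (-1.45) and Hspd1 without that library or fat KPC 8. For Hspa12a the difference was -0.84 ± 0.81 (FDR 0.43), with a fat value of -1.99. In KPC IL6KO against no tumor, 0 of 64 members were called higher and 0 lower, as were 0% and 0% of all genes. There, 5 members had an unadjusted p under 0.05 (7.81%, where 7.96% of all genes did), and the likelihood ratio test called 0 members and 0.31% of all genes.

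**Figure D5:**
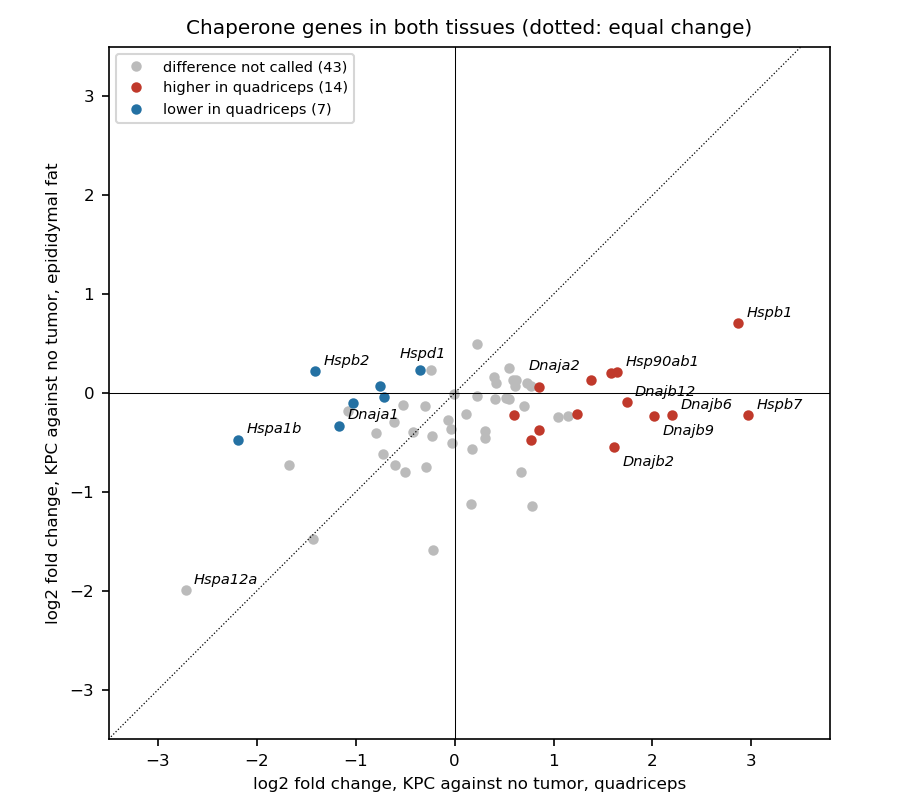
Log2 fold change of KPC against no tumor in quadriceps (horizontal) and in epididymal fat (vertical) for the 64 members in both tables, coloured by the call on the difference: 14 higher in quadriceps in red, 7 lower in blue and 43 not called in grey. Members spread from -2.72 to 2.97 along the quadriceps axis and mostly lie near 0 on the fat axis. The red and blue points lie away from the dotted line of equal change, while many grey points lie on or near it.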

How the data were processed

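RNA from quadriceps and epididymal fat was sequenced as pairs of 75-base reads. Per the labels and the study's methods, the authors aligned uniquely mapped reads to mm10 with STAR and assigned them with featureCounts 1.5.1, left out 1 no tumor muscle library as an outlier, and deposited raw counts per gene for each tissue in 1 table, already without genes of low count (the rule is not given in the sources used here). Strand setting was not given, and the labels and the methods name different library kits. The 2 tables were used as deposited. Replicates were taken as separate mice, and where that fails p-values measure only the spread between libraries. In each tissue, no pair of libraries of the same group agreed within sampling noise (smallest chi-square per degree of freedom 28.9). Pairs across groups were not checked.

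Counts were scaled by TMM and tested with edgeR 4.0.16 (R 4.3.3, quasi-likelihood, filterByExpr, which removed 0 genes), all groups of a tissue in 1 fit, with Benjamini-Hochberg adjustment over the whole table. SE was the log2 FC over the square root of F. DESeq2 1.42.0, the likelihood ratio test, other scalings and filters, a replicate block and leaving out each library were alternatives. Scripts were tested on simulated data. Exact tests used scipy 1.17.1. Gene positions came from GENCODE vM21. Members, lists and named genes were chosen with earlier results of these data known. Always named were 22 classical members with Hsf1, Cryab and Fkbp5, then the 6 largest rises and falls in KPC (mean log2 CPM of at least 1), the 4 smallest p in a comparison where none was called, and the 4 smallest FDR of a tissue difference; any member called in KPC IL6KO or at the floor in a whole group would have been named too. Members named beside these were picked after their values were seen.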

Additional observations from a re-analysis of the deposited data

Results flagged for a closer look

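In groups of 4 libraries, a library was marked when its gap to the nearest other took a larger part of the range of its group than Dixon's 95% critical value for 4, which chance alone does for about 1 in 20 groups. All members were screened with Hsf1, Cryab and Fkbp5, and 8 of 136 groups were marked in quadriceps and 26 of 228 in fat. In quadriceps KPC 4 was high for Hspb7 (2650 CPM, others 1270 to 1480) and Hspa4l (11.6 CPM, others 1.51 to 2.38). KPC 3 was high for Hspbap1 (20.2 CPM, others 6.23 to 7.41) and Dnajc7 (136 CPM, others 106 to 109), and KPC 2 for Dnajc24 (2.29 CPM, others 1.62 to 1.66). KPC IL6KO 4 was high for Dnajb9 (21.6 CPM, others 15.4 to 16.4), and KPC IL6KO 3 for Dnajc1 (18.1 CPM, others 16.7 to 16.9) and Dnajc8 (37.7 CPM, others 33.7 to 34.1).

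In fat, KPC 7, the KPC library with the most germ cell markers (757 CPM), was high for Dnajb3 (38.9 CPM, others 3.04 to 4.42), Hspa1l (51.7 CPM, others 4.21 to 10.4), Dnajb13 (13.4 CPM, others 1.63 to 3.12), Dnajb7 (11.5 CPM, others 1.69 to 2.99), Dnajc5g (7.95 CPM, others 0.258 to 0.438), Hspa2 (86.6 CPM, others 16.8 to 27.2) and Dnajc27 (25.1 CPM, others 12.2 to 13.7). KPC 5 was low for Hspa1a (5.26 CPM, others 7.88 to 8.39), Hspa1b (7.65 CPM, others 14.9 to 16.1), Hsp90b1 (1020 CPM, others 1620 to 1700) and Hspbap1 (7.59 CPM, others 9.17 to 9.4), and high for Dnajc6 (11.7 CPM, others 4.72 to 5.39). KPC 8 was high for Dnajc22 (41.2 CPM, others 12.9 to 16.9). KPC IL6KO 6 was high for Hsp90b1 (2940 CPM, others 1020 to 1210), Dnajc3 (585 CPM, others 174 to 241), Hspa13 (160 CPM, others 40.5 to 53.8), Dnaja4 (199 CPM, others 6.75 to 38.7), Dnaja1 (220 CPM, others 131 to 140), Dnajc1 (70 CPM, others 52.4 to 54.6) and Dnajc17 (16.2 CPM, others 9.06 to 9.41), and no tumor 5 was high for Dnaja1 (220 CPM, others 145 to 157). KPC IL6KO 5 was high for Hsph1 (220 CPM, others 52.3 to 75.8), Hsp90aa1 (449 CPM, others 305 to 326) and Dnajc9 (39.4 CPM, others 20 to 22.6). KPC IL6KO 7 was high for Dnajb14 (28.5 CPM, others 16.3 to 18.1) and KPC IL6KO 8 for Hspb2 (3.27 CPM, others 1.28 to 1.51).

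By the test of the difference itself, the log2 FC of KPC against no tumor was higher in quadriceps than in fat for 14 members: Hspb7 (by 3.08), Dnajb6 (2.32), Dnajb9 (2.13), Dnajb2 (2.06), Hspb1 (2.06), Dnajb12 (1.71), Hspbap1 (1.32), Hsp90ab1 (1.31), Dnajc2 (1.27), Dnaja2 (1.15), Dnajc16 (1.12), Dnajc30 (1.1), Dnajc21 (0.71) and Dnajc5 (0.67). The difference, quadriceps minus fat, was below 0 for 7: Hspa1b (-1.82), Hspb2 (-1.73), Hspbp1 (-1.04), Dnaja1 (-0.96), Hspa14 (-0.94), Dnajc19 (-0.78) and Hspd1 (-0.7).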

How the results depend on the processing

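No called member of quadriceps changed sign under any alternative run. Of the 37 called in KPC against no tumor, 35 kept their call with DESeq2 and with RLE scaling, 37 with the likelihood ratio test, with the newer quasi-likelihood form and without the low-count filter, 34 with at least 10 counts in every library, and 35 with only the groups compared. DESeq2 and RLE scaling each also called Hspe1 and Dnajc13. Leaving out 1 library gave 18 (without KPC 3) to 25 (without no tumor 1) members higher and 12 to 14 lower. Without KPC 3, Hsp90b1, Hspa9, Hspb8, Dnajc7, Dnajc8 and Dnajc24 were lost. Against KPC IL6KO, 20 to 23 were higher and 9 to 12 lower, and the median log2 FC was 0.18 to 0.41. Among tissue differences, 12 to 17 were higher and 5 to 8 lower, with Hspa1b at -2.19 to -1.45, Hspb2 at -2.19 to -1.26 and Hspd1 at -0.77 to -0.61. In fat, the count of members lower in KPC than in no tumor was 0, and 1 with DESeq2 (Dnajb5); the cause was not tested. No single library left out gave a called member in fat. With the replicate number as a block, 22 members rose and 13 fell in KPC quadriceps (Dnajc21, Dnajc24 and Dnajb5 lost, Hspa4l gained). Deviations of same-numbered libraries correlated at -0.155 to 0.265 in quadriceps and -0.539 to 0.65 in fat. Libraries of different numbers were not compared across the groups, so these values cannot tell whether the numbers pair the libraries. The spread in fat limited what could be called there.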
